A study of Mus musculus with 3 samples.

Results

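The miR-30 family was examined in short RNA sequencing libraries of TAG1 cells, a mouse ES cell line in which doxycycline (Dox) switches on Alk4*, a constitutively active type I receptor of the TGF-β/Activin/Nodal pathway that phosphorylates Smad2/3. The members were chosen by name and not by their values: each listed arm of miR-30a, miR-30b, miR-30c, miR-30d and miR-30e, which gave 11 of the 693 listed miRNAs, 5 from the 5p side and 6 from the 3p side of their hairpins. There were 3 libraries, 1 per condition, all from TAG1 cells carrying the inducible receptor. The Control library came from untreated cells, the SB library from cells given 30 µM of an inhibitor of the receptor kinases over 16 hrs, and the Dox library from cells given the same inhibitor treatment and then 1 µg/µl Dox for a further 12 hrs. The labels spell the inhibitor SB-431541 and the methods of the study SB-431542. These methods put the Control cells in serum (FBS) and the SB and Dox cells in a serum replacement (KSR), while the growth protocol in the labels names FBS for each sample. If the media differed, medium and treatment cannot be told apart in a comparison with the Control library. Since no condition had a replicate, each comparison is between 2 libraries and carries counting error only.

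A miRNA is cut from a hairpin in its primary transcript, and usually one arm of the resulting duplex, the guide, is kept by Argonaute while the other is degraded. Bases 2 to 8 of the mature miRNA, the seed, pair with target mRNAs, so that arms with the same seed share many targets. The miR-30 guides are the 5p arms, which are broadly expressed and abundant in differentiated tissues such as kidney and heart, where they are known to restrain genes of epithelial-mesenchymal transition and fibrosis, and TGF-β is known to lower them in some differentiated cells. The comparison of the SB and Control libraries asked how the family stood when Smad2/3 activation was blocked, and the comparison of the Dox and SB libraries how it stood once activation was induced.

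The mature sequences of 7 of the 11 arms were found in RefSeq (GRCm38.p6). They are shown for the seed and for the bases outside it, which separate the reads of arms with the same seed. Capitals mark the seed. The arms miR-30b-5p, miR-30b-3p, miR-30d-5p and miR-30d-3p are given by name.
miR-30a-5p: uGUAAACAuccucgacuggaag
miR-30c-5p: uGUAAACAuccuacacucucagc
miR-30e-5p: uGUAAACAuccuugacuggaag
miR-30a-3p: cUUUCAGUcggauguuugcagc
miR-30e-3p: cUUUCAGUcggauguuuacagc
miR-30c-1-3p: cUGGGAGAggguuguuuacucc
miR-30c-2-3p: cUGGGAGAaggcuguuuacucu

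These 5p arms shared the seed GUAAACA and their first 12 bases. Counted from 1 at the 5′ end, miR-30a-5p and miR-30e-5p differed by C13U alone, while miR-30a-5p and miR-30c-5p differed at 5 positions. In RefSeq the same seed also occurs in miR-384-5p, which was not among the listed miRNAs. The 3p arms shown fell into 2 seed groups, UUUCAGU in miR-30a-3p and miR-30e-3p and UGGGAGA in miR-30c-1-3p and miR-30c-2-3p. The difference between miR-30a-3p and miR-30e-3p was G18A, so their first 17 bases were identical, and a read of 17 bases, the shortest kept, could match both. Reads that reach base 18 of the arm separate them, and how many reads ended before it was not analysed here. Between miR-30c-1-3p and miR-30c-2-3p the differences were G9A, U12C and C22U. The arms of miR-30b and miR-30d were not in this comparison, so which short reads they could share with other members was not examined.

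The hairpins are shown because the 2 arms of each are compared with one another further on, and capitals mark the mature arms. Mir30a lies at chr1:23272269-23272339 on the plus strand and Mir30c-2 at chr1:23291701-23291784 on the same strand, with 19361 bases between them. Mir30c-1 lies at chr4:120769534-120769622 on the minus strand and Mir30e at chr4:120772606-120772697 on that strand, with 2983 bases between them. In the GENCODE annotation of GRCm38, Mir30c-1 and Mir30e are in introns of Nfyc (chr4:120757438-120831572), which codes for a subunit of the transcription factor NF-Y, and Mir30c-2 is in an exon of the lincRNA Gm27028 (chr1:23291537-23291935).
Mir30a: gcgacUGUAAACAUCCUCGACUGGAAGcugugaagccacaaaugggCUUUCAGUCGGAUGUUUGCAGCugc
Mir30c-2: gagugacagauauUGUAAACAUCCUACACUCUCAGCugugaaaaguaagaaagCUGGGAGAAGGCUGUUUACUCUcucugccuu
Mir30c-1: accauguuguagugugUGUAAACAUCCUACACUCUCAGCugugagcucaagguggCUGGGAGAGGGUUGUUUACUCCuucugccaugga
Mir30e: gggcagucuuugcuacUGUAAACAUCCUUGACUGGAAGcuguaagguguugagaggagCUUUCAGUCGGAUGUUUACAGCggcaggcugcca

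Both miR-30c hairpins hold the same 5p arm, so reads of miR-30c-5p cannot be divided between them, whereas their 3p arms can be told apart. The letters CAGAC, known from primary miRNAs whose processing Smad proteins promote, were searched on either strand. They were found in 0 of these 4 hairpins and in 205 of the 1005 mouse hairpins of the RefSeq table (20.4%).

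Levels are given in rpm, which is the authors' scaling of a read number to a library of 1000000 reads, and the number of reads behind a value was recovered from the steps between values. The totals implied by these steps ran from 9895513 to 11354692 reads, and 1 read was worth 0.0881 to 0.101 rpm. They are lower than the read totals stated in the paper, by a share that is not the same in each library, and the cause was not tested. Reads on listed miRNAs made up 28.3% of the Control, 24.1% of the SB and 33.4% of the Dox library, so the median listed miRNA had a log2 ratio of -0.19 between SB and Control and 0.38 between Dox and SB before any member was considered. All 17 miRNAs of the miR-290 and miR-302 clusters fixed as markers of ES cells were listed, and they held 27.0% to 28.9% of the reads on listed miRNAs. Within this list 5 were called higher and 4 lower in SB over Control, and 7 higher and 8 lower in Dox over SB, beside 15.3% higher and 30.2% lower, and 41.7% higher and 17.9% lower, of all listed miRNAs. Family reads numbered 22683 in the Control, 23177 in the SB and 27592 in the Dox library.

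Among the guides, miR-30d-5p had 682 rpm in the Control (7471 reads), 607 rpm in the SB (6887 reads) and 1073 rpm in the Dox library (10615 reads). It was lowest in the SB and highest in the Dox library, where it was the most abundant member. For miR-30a-5p the levels were 631 rpm in the Control (6911 reads), 721 rpm in the SB (8184 reads) and 827 rpm in the Dox library (8186 reads), so that it was highest in the Dox library and passed miR-30d-5p only in the SB library. The levels of miR-30e-5p, which differs from miR-30a-5p at 1 base, were 369 rpm in the Control (4040 reads), 359.7 rpm in the SB (4084 reads) and 513 rpm in the Dox library (5078 reads). The Control and SB values of miR-30e-5p lay within each other's 95% Poisson intervals (357 to 380 rpm and 349 to 371 rpm), and the Dox value lay above both. These 3 arms ranked between 54 and 89 of the 693 listed miRNAs in each library.

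The other guides were scarcer. Levels of miR-30c-5p, the sum over 2 hairpins, were 91.4 rpm in the Control (1001 reads), 129 rpm in the SB (1460 reads) and 119 rpm in the Dox library (1178 reads), with the SB library highest. For miR-30b-5p they were 20.4 rpm in the Control (224 reads), 29.1 rpm in the SB (330 reads) and 16.1 rpm in the Dox library (159 reads). Both were highest in the SB library, and miR-30b-5p was lowest in the Dox library. The order within the Control library was miR-30d-5p, miR-30a-5p, miR-30e-5p, miR-30c-5p and miR-30b-5p, and no neighbours in it had overlapping intervals. In the SB library miR-30a-5p stood before miR-30d-5p, and in the Dox library the order was that of the Control. Adaptor ligation differs between miRNA sequences, so an order of levels is that of sequenced reads.

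On the 3p side, miR-30e-3p had 123 rpm in the Control (1350 reads), 77.8 rpm in the SB (883 reads) and 98.0 rpm in the Dox library (970 reads). For miR-30a-3p, with the same seed, the levels were 121 rpm in the Control (1329 reads), 89.1 rpm in the SB (1012 reads) and 85.0 rpm in the Dox library (841 reads). Both were highest in the Control library, where their intervals overlapped (117 to 130 rpm and 115 to 128 rpm). Levels of miR-30c-2-3p were 19.9 rpm in the Control (218 reads), 19.2 rpm in the SB (218 reads) and 34.1 rpm in the Dox library (337 reads). Those of miR-30c-1-3p were 5.11 rpm in the Control (56 reads), 4.76 rpm in the SB (54 reads) and 12.4 rpm in the Dox library (123 reads). Both passenger arms of miR-30c were alike in the Control and SB libraries within their intervals and higher in the Dox library. For miR-30b-3p the levels were 7.03 rpm in the Control (77 reads), 5.28 rpm in the SB (60 reads) and 10.0 rpm in the Dox library (99 reads). The arm miR-30d-3p was near the limit of detection, with 6 reads in the Control, 5 in the SB and 6 in the Dox library, from a hairpin whose 5p arm was among the most abundant members.

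**Figure D1:**
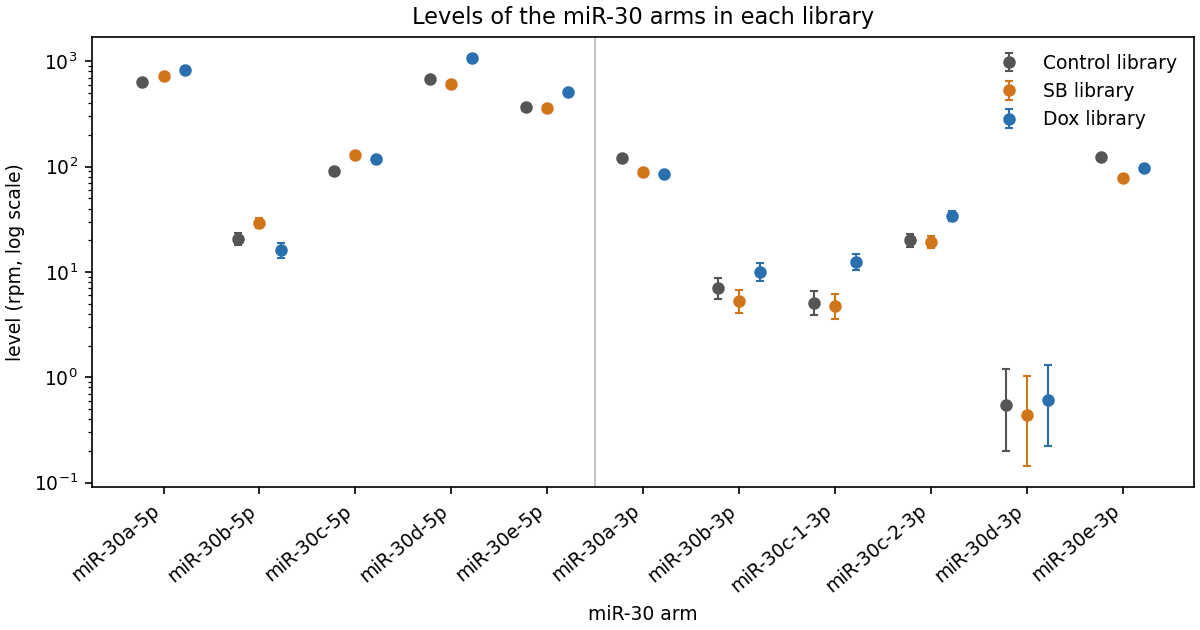
Levels of the 11 miR-30 arms in rpm on a log scale, 5p arms left of the vertical line and 3p arms right of it, with 1 point per library and 95% Poisson intervals (counting error only, often smaller than the point). The 5p arms of miR-30a, miR-30d and miR-30e lie between 359.7 and 1073 rpm, miR-30b-5p and miR-30c-5p are highest in the SB library, and miR-30d-3p stays below 1 rpm.

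In the comparison of the SB with the Control library, miR-30b-5p and miR-30c-5p rose and the 3p arms miR-30a-3p and miR-30e-3p fell, while the 3 abundant guides did not reach the fold in rpm as deposited. A call needed a log2 ratio of at least 0.32 in size, together with a Z-score of the read proportions outside the central 95% of a normal distribution. These thresholds are those of the study, which required a decrease in SB over Control and an increase in Dox over SB together. Here each comparison and direction was called alone. By these criteria 2 of the 11 members were called higher, against 15.3% of all listed miRNAs, and 2 were called lower, against 30.2% of all listed miRNAs. The median log2 ratio of the members was -0.10, beside -0.19 over all listed miRNAs. The log2 ratio was 0.51 for miR-30b-5p (95% exact interval 0.26 to 0.76) and 0.49 for miR-30c-5p (0.38 to 0.61). Both stayed positive under each of 5 scalings of the libraries, though no member was called higher relative to miR-26a-5p, the reference of the study's qPCR of mature miRNAs. In rpm as deposited miR-26a-5p itself had a log2 ratio of 0.24 in SB over Control (0.20 to 0.29). In Dox over Control it had 0.30 (0.26 to 0.35), and it was not called in either. Of the abundant guides, miR-30a-5p had a log2 ratio of 0.19 (0.15 to 0.24), miR-30d-5p one of -0.17 (-0.22 to -0.12) and miR-30e-5p one of -0.04 (-0.10 to 0.03). Each of these 3 changed sign under at least 1 other scaling. Shares of all listed miRNAs called were computed in rpm as deposited only, so counts of members under other scalings have none beside them. Past the fold were miR-30a-5p at 0.42 with the libraries scaled to their reads on listed miRNAs and at 0.37 with the median of ratios, where 3 members were called higher, and miR-30d-5p at -0.41 relative to miR-26a-5p, where 4 were called lower.

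For the arms opposite the guides, the log2 ratio of SB over Control was -0.66 for miR-30e-3p (-0.79 to -0.54) and -0.44 for miR-30a-3p (-0.56 to -0.33), negative under each of the 5 scalings. The ratio of miR-30e-3p stayed past the fold in each, whereas that of miR-30a-3p did not reach it with the reads on listed miRNAs (-0.21) and with the median of ratios (-0.26). That of miR-30b-3p was -0.41 with an interval that held 0 (-0.92 to 0.09). The intervals of miR-30c-1-3p and miR-30c-2-3p also held 0, at log2 ratios of -0.10 and -0.05, and that of miR-30d-3p ran from -2.37 to 1.66, so no change in it was detectable at this depth. Summed over the family, 5p arms had 1793 rpm in the Control and 1845 rpm in the SB library, a log2 ratio of 0.04 (0.01 to 0.07) that became -0.20 relative to miR-26a-5p. The summed 3p arms had 277 rpm in the Control and 197 rpm in the SB library, a log2 ratio of -0.50 (-0.57 to -0.42), and were lower under each scaling.

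**Figure D2:**
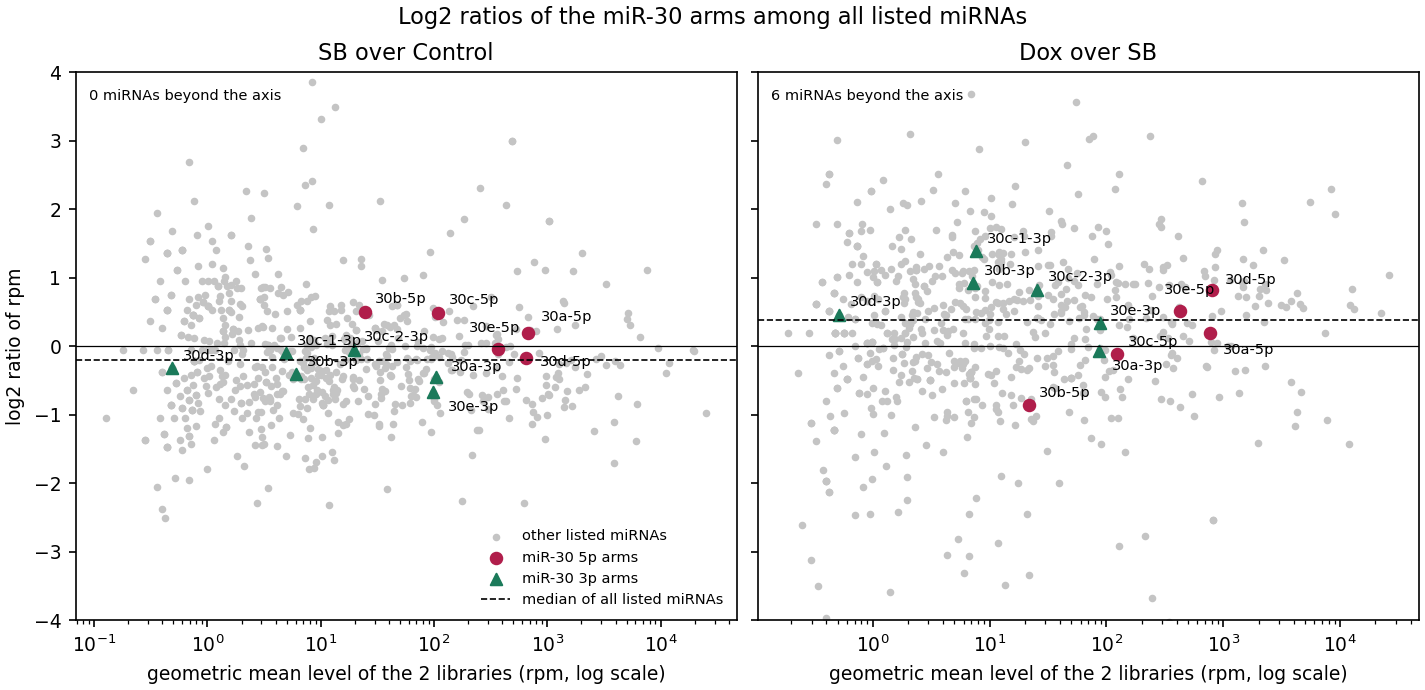
Log2 ratio of rpm against the geometric mean level of the 2 libraries (log scale) for the 693 listed miRNAs, SB over Control on the left and Dox over SB on the right, with the miR-30 5p arms as circles and 3p arms as triangles. The dashed line is the median of all listed miRNAs (-0.19 and 0.38), and 6 miRNAs of the right panel lie beyond the axis. In the right panel miR-30d-5p (0.82) and miR-30c-1-3p (1.39) lie above the median and miR-30b-5p (-0.85) below it.

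When the Dox library was set against the SB library, miR-30d-5p and miR-30e-5p rose, miR-30b-5p fell, and 4 passenger arms rose, led by miR-30c-1-3p and including miR-30e-3p, whose sign turned under 2 other scalings. By the same criteria 6 of the 11 members were called higher, against 41.7% of all listed miRNAs, and 1 was called lower, against 17.9% of all listed miRNAs. The members' median log2 ratio was 0.46, beside 0.38 over all listed miRNAs. Among the guides the log2 ratio was 0.82 for miR-30d-5p (0.78 to 0.87) and 0.51 for miR-30e-5p (0.45 to 0.57), positive in each of the 5 scalings, where miR-30d-5p ranged from 0.35 to 0.82 and miR-30e-5p from 0.04 to 0.51. With the reads on listed miRNAs, the median of ratios and quantile normalization miR-30e-5p did not reach the fold. For miR-30b-5p it was -0.85 (-1.14 to -0.58), and between -1.32 and -0.85 over the scalings. The log2 ratio of miR-30a-5p, 0.20 (0.15 to 0.24), did not reach the fold and turned to -0.27 when the libraries were scaled to their reads on listed miRNAs. That of miR-30c-5p was -0.11, with an interval whose upper end was at 0.00055. It was negative under each scaling and past the fold in 3 of them, at -0.58 with the reads on listed miRNAs, -0.49 with the median of ratios and -0.46 with quantile normalization.

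The passenger arms called higher in Dox over SB were miR-30c-1-3p with a log2 ratio of 1.39 (0.91 to 1.88), miR-30b-3p with 0.92 (0.44 to 1.41), miR-30c-2-3p with 0.83 (0.58 to 1.08) and miR-30e-3p with 0.33 (0.20 to 0.47). For the first 3 the sign held in each scaling, although with the reads on listed miRNAs 3 members in all were called higher and miR-30b-3p, at 0.45, was no longer among them, whereas miR-30e-3p turned to -0.13 with the reads on listed miRNAs and to -0.04 with the median of ratios. The ratio of miR-30a-3p was -0.07 with an interval around 0 (-0.20 to 0.06), but it was past the fold at -0.54 with the reads on listed miRNAs and -0.45 with the median of ratios. That of miR-30d-3p ran from -1.51 to 2.51. Summed 5p arms had 2548 rpm in the Dox library, a log2 ratio of 0.47 over SB (0.44 to 0.49) that was equal to the 0.47 of all listed miRNAs summed and fell to -0.0021 when scaled to the reads on them. The summed 3p arms had 240.1 rpm in the Dox library, a log2 ratio of 0.29 over SB (0.20 to 0.37) that turned to -0.18 with the same scaling.

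**Figure D3:**
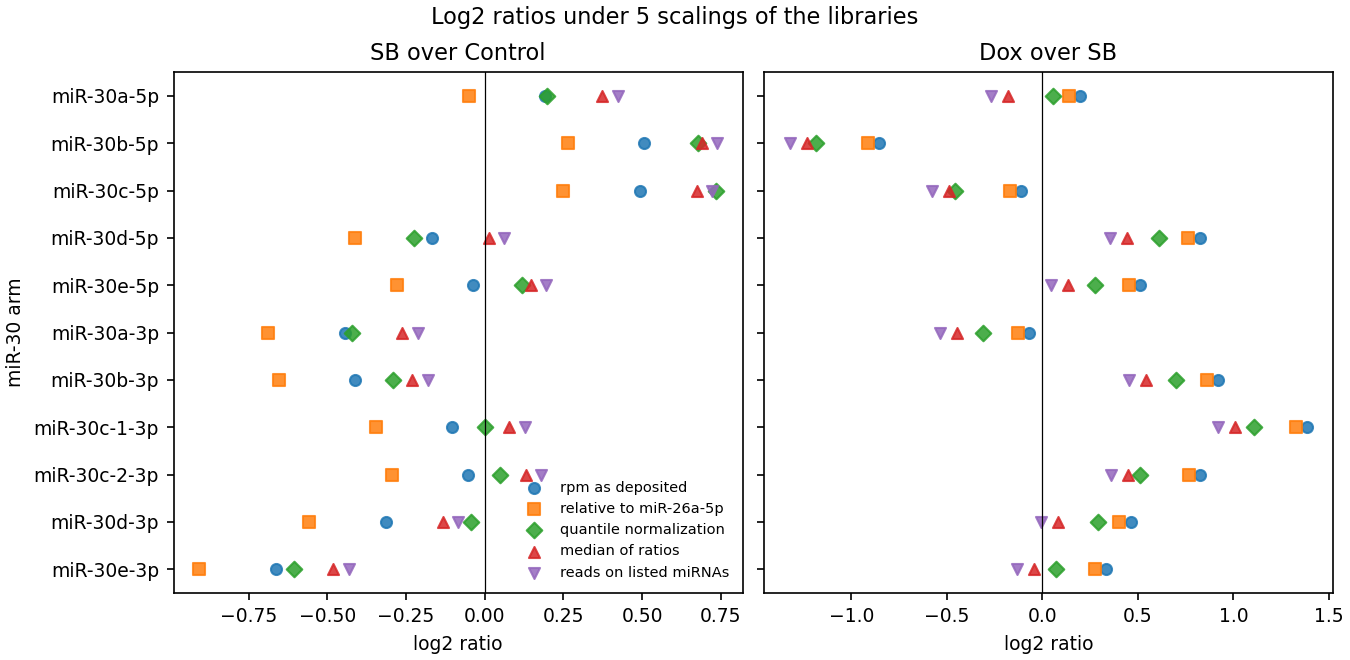
Log2 ratios of each member under 5 scalings of the libraries, SB over Control on the left and Dox over SB on the right, with 1 symbol per scaling. In the left panel miR-30b-5p and miR-30c-5p lie right of 0 and miR-30a-3p and miR-30e-3p left of it under each scaling; in the right panel miR-30d-5p, miR-30e-5p, miR-30b-3p, miR-30c-1-3p and miR-30c-2-3p lie right of 0, and miR-30b-5p, miR-30c-5p and miR-30a-3p left of it, under each scaling.

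The Dox library was also set against the Control library, which by the methods differed in medium and which enters the first comparison too. Here 7 members were called higher, against 30.6% of all listed miRNAs, and 3 were called lower, against 19.8% of all listed miRNAs, with a median log2 ratio of 0.39 beside 0.19 over all listed miRNAs. The guides called higher were miR-30d-5p (0.65), miR-30e-5p (0.48), miR-30a-5p (0.39) and miR-30c-5p (0.38), and miR-30b-5p was called lower at -0.35. These signs held under each scaling, but under the 4 other scalings 3 or 4 members, not 7, were called higher. Over the scalings miR-30a-5p ranged from 0.09 to 0.39, miR-30c-5p from 0.08 to 0.38 and miR-30e-5p from 0.18 to 0.48, so that miR-30a-5p and miR-30c-5p passed the fold in rpm as deposited and in none of the other 4, while miR-30d-5p, from 0.35 to 0.65, passed it in each. Of the passenger arms, miR-30c-1-3p (1.28), miR-30c-2-3p (0.78) and miR-30b-3p (0.51) were called higher and miR-30a-3p (-0.51) and miR-30e-3p (-0.33) lower. The ratio of miR-30b-3p did not reach the fold with the reads on listed miRNAs (0.27), the median of ratios (0.31) and miR-26a-5p (0.21), whereas those of both miR-30c 3p arms passed it under each scaling. The log2 ratio of miR-30d-3p was 0.15, from 6 reads in each of the 2 libraries. Summed over the family, the 5p arms had a log2 ratio of 0.51 and the 3p arms one of -0.21.

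The make-up of the 5p reads does not depend on any scaling by 1 factor per library, though quantile normalization would change it. The share of miR-30d-5p was 38.0% in the Control, 32.9% in the SB and 42.1% in the Dox library. For miR-30a-5p it was 35.2% in the Control, 39.1% in the SB and 32.5% in the Dox library, so the leading guide was miR-30d-5p in the Control and Dox and miR-30a-5p in the SB library. The share of miR-30e-5p stayed between 19.5% and 20.6%. That of miR-30c-5p was 5.09% in the Control, 6.97% in the SB and 4.67% in the Dox library. The share of miR-30b-5p was 1.14% in the Control, 1.58% in the SB and 0.631% in the Dox library. The SB library thus held the lowest share of miR-30d-5p and the highest shares of miR-30a-5p, miR-30b-5p and miR-30c-5p. Of all reads on listed miRNAs, the 5p arms took 0.633% in the Control, 0.765% in the SB and 0.763% in the Dox library, and the 3p arms 0.0979%, 0.0815% and 0.0719%.

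**Figure D4:**
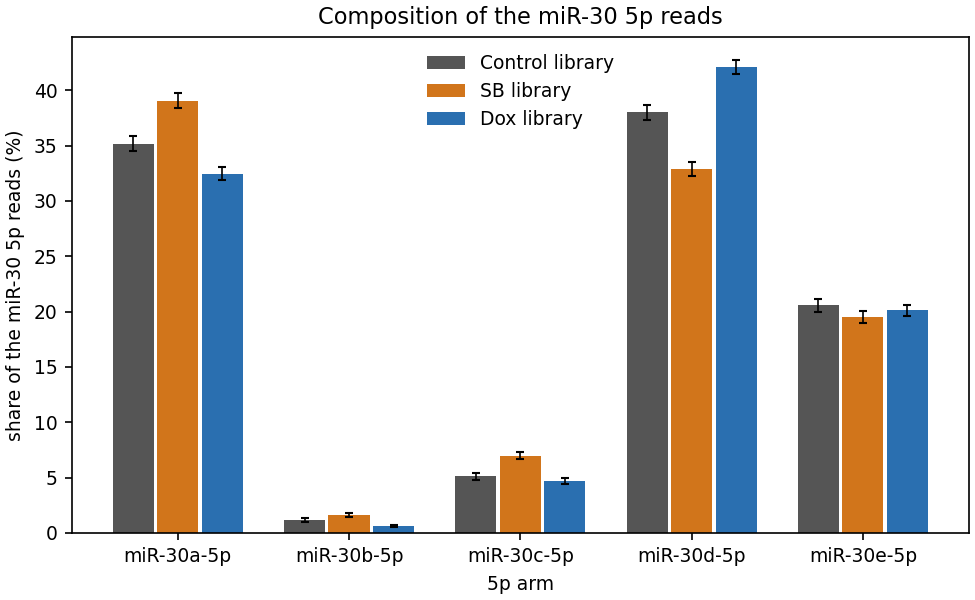
Share of each miR-30 5p arm in the 5p reads of the family in the 3 libraries, in percent, with exact 95% binomial intervals (counting error only). The bars of miR-30d-5p are lowest in the SB library (32.9%) and highest in the Dox library (42.1%), while those of miR-30e-5p lie between 19.5% and 20.6%.

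After these values were seen, the guides miR-30a-5p, miR-30d-5p and miR-30e-5p were summed and set beside the sum of miR-30b-5p and miR-30c-5p, as a description. The first sum was 1682 rpm in the Control, 1687 rpm in the SB and 2413 rpm in the Dox library. The other was 112 rpm in the Control, 158 rpm in the SB and 135 rpm in the Dox library. The log2 ratio of the first sum minus that of the other was -0.49 in SB over Control (-0.60 to -0.38) and 0.74 in Dox over SB (0.63 to 0.85). On the 3p side the same difference was -0.42 (-0.66 to -0.18) and -0.82 (-1.04 to -0.60), so the passenger arms of miR-30b and miR-30c stood higher relative to the others in the Dox library while their guides stood lower.

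The arms of 1 hairpin come from the same precursor, and the balance between their reads is likewise independent of a factor per library, but not of quantile normalization. For miR-30a the 5p share of the reads of both arms was 83.9% in the Control, 89.0% in the SB and 90.7% in the Dox library. For miR-30e it was 75.0% in the Control, 82.2% in the SB and 84.0% in the Dox library. In both hairpins the interval of the share in the SB library lay above that in the Control library, with a log2 change of the 5p to 3p ratio of 0.64 for miR-30a (0.51 to 0.77) and 0.63 for miR-30e (0.49 to 0.77). Between SB and Dox the changes were smaller, 0.27 for miR-30a (0.13 to 0.41) and 0.18 for miR-30e (0.03 to 0.32).

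In miR-30b the 5p share was 74.4% in the Control, 84.6% in the SB and 61.6% in the Dox library. In miR-30c, with both hairpins summed, it was 78.5% in the Control, 84.3% in the SB and 71.9% in the Dox library. Both were highest in the SB and lowest in the Dox library. The log2 change of the 5p to 3p ratio in SB over Control was 0.92 for miR-30b (0.35 to 1.49) and 0.56 for miR-30c (0.28 to 0.83), and in Dox over SB it was -1.78 for miR-30b (-2.34 to -1.22) and -1.07 for miR-30c (-1.32 to -0.82). The 5p share of miR-30d was 99.9% in each library, with too few 3p reads to show a change. Within the 3p reads of miR-30c, miR-30c-2-3p took 79.6% in the Control (74.3% to 84.2%), 80.1% in the SB (74.9% to 84.7%) and 73.3% in the Dox library (69.0% to 77.3%), and these intervals overlapped.

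**Figure D5:**
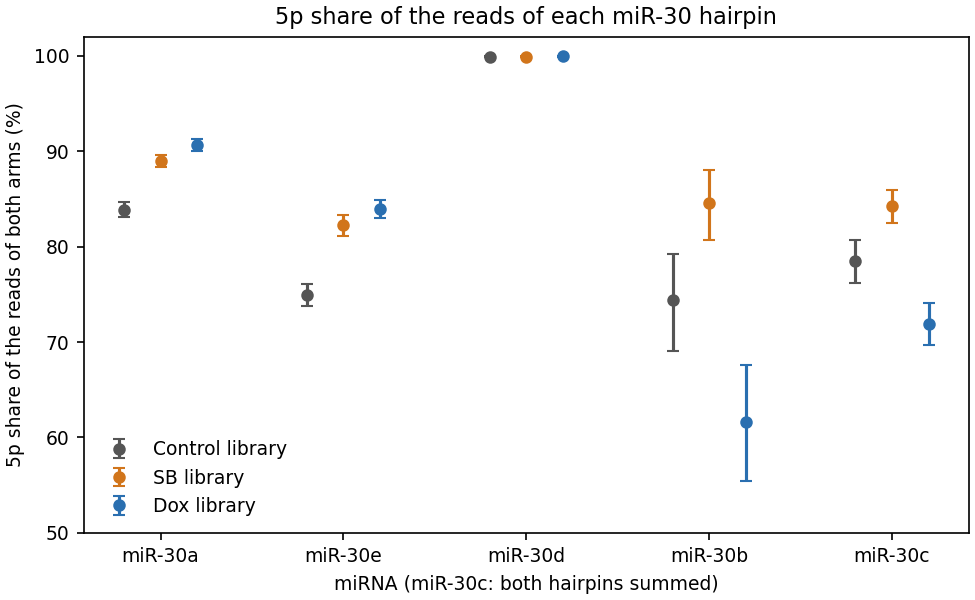
Share of 5p reads among the reads of both arms of each miR-30 hairpin (both miR-30c hairpins summed), in percent on an axis that does not start at 0, with 1 point per library and exact 95% binomial intervals (counting error only). In miR-30a and miR-30e the Control library is lowest, in miR-30b and miR-30c the SB library is highest and the Dox library lowest, and in miR-30d the share is 99.9% in each library.

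Outside the family, 60 hairpins had at least 100 reads on each arm in each library. Their median log2 change of the 5p to 3p ratio was -0.05 in SB over Control, with quartiles at -0.40 and 0.27, and 28 of the 60 changes were positive. In Dox over SB the median was 0.25, with quartiles at -0.59 and 0.74, and 36 of the 60 were positive. Of the family miR-30a and miR-30e met the same minimum, as did miR-30c with its hairpins summed. In SB over Control their changes lay above the upper quartile of the other hairpins. In Dox over SB those of miR-30a and miR-30e lay between the quartiles and that of miR-30c, -1.07, below the lower quartile. The 3p reads of miR-30b and miR-30d were under the minimum.

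The 5 miRNAs nearest to miR-30d-5p in their log2 ratios of SB over Control and Dox over SB were taken from 119 miRNAs with at least 100 rpm in each library, by Euclidean distance over these 2 ratios of 3 libraries. They were miR-1965 (distance 0.0686), miR-27b-3p (0.0922), miR-96-5p (0.117), miR-140-3p (0.149) and miR-182-5p (0.160). Their log2 ratios ran from -0.24 to -0.02 in SB over Control and from 0.83 to 0.97 in Dox over SB.

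Other lists gave the setting of these values. Their counts are to be read against the shares of all listed miRNAs called, 15.3% higher and 30.2% lower in SB over Control and 41.7% higher and 17.9% lower in Dox over SB. Among 17 miRNAs linked to TGF-β signalling in differentiated tissues, 9 were called higher and 5 lower in SB over Control, and 8 were called higher and 7 lower in Dox over SB. Their median log2 ratios were 0.38 and -0.20. The most abundant of them were miR-21-5p, miR-29a-3p and miR-200a-3p. For miR-21-5p the log2 ratio was 1.10 in SB over Control and -0.28, not called, in Dox over SB. In miR-29a-3p, known to repress collagen genes, the log2 ratio was 1.36 in SB over Control and -1.41 in Dox over SB, and in miR-200a-3p, known to keep cells epithelial, it was -0.75 and 1.61. The 9 let-7 guides, which are low in ES cells and accumulate as cells differentiate, had a median log2 ratio of 1.11 in SB over Control, with 8 called higher, and of -1.01 in Dox over SB, with 9 called lower.

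Markers of other cell types moved as well, and their counts in these 2 comparisons are to be read against the same shares. Of 13 miRNAs known from fibroblasts, which serve as feeder cells for ES cells, 12 were called higher in SB over Control and 11 lower in Dox over SB, and their summed level was 2944 rpm in the Control, 6370 rpm in the SB and 3401 rpm in the Dox library. Of the sum in the Dox library 2041 rpm were miR-21-5p. In Dox over Control 6 of the 13 were called lower, against 19.8% of all listed miRNAs, and 2 higher, against 30.6%. Their median log2 ratio there was -0.41, beside 0.19 over all listed miRNAs. The lowest of the 13 had 1.46 rpm in the Control, 6.87 rpm in the SB and 0.101 rpm in the Dox library, and 3 of them are also in the TGF-β list. The sum was thus highest in the library in which miR-30b-5p and miR-30c-5p were highest. In bulk RNA a change in the number of cells of a type and one in the RNA per cell cannot be told apart, and the part of such cells in the miR-30 values was not tested. The 3 miRNAs known from neurons were summed at 2757 rpm in the Control, 2092 rpm in the SB and 3794 rpm in the Dox library, and 3 of 4 known from blood cells, with miR-223-3p not listed, at 28.9 rpm, 36.8 rpm and 77.7 rpm. In SB over Control 2 of the neuron markers were called lower and 1 of the blood markers higher, and in Dox over SB 3 of the neuron and 2 of the blood markers were called higher. In rpm the neuron list was lowest in the SB and highest in the Dox library, as were miR-30d-5p, miR-30e-5p, miR-30b-3p, miR-30c-1-3p and miR-30c-2-3p. The summed ES cell markers had the same order, with 81818 rpm in the Control, 65169 rpm in the SB and 93753 rpm in the Dox library. So did all listed miRNAs summed, with 283167 rpm, 241253 rpm and 333770 rpm, and this order is therefore not particular to the neuron list. For miR-30d-5p the SB over Control ratio turned positive under 2 other scalings (0.06 with the reads on listed miRNAs and 0.01 with the median of ratios), and those of miR-30e-5p, miR-30c-1-3p and miR-30c-2-3p also changed sign under other scalings. The part of neurons or blood cells in the values of these arms was not tested either.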

How the data were processed

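Short RNA of 20-30 nucleotides from 3 libraries was sequenced on the Illumina GAII, with 2 runs pooled per library. According to the methods, the authors removed adaptors with the FASTX clipper, kept reads of more than 16 bases and matched them without mismatches, with Bowtie (0.12.7 in the submitters' processing notes), to mature and then hairpin sequences of miRBase. A read with more than 1 match was given to a miRNA by its length, or counted for every match. The deposited values are RPM, reads scaled to 1000000 reads of the library, and a miRNA was listed from a minimum of 10 reads in the libraries together. Because the reads of a library are scaled to its total, a change in other short RNAs moves each RPM value.

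Each of the 2079 values was a whole multiple of 1 step per library, within 0.1 read, and reads were recovered from this. Ratios are of RPM with no pseudocount, on the log2 scale. Intervals are 95% exact, Poisson for levels and Clopper-Pearson for ratios and shares, and take in only the error of counting, because amplified reads with no molecular identifiers are not separate molecules. Calls used the thresholds of the study for the fold (0.32 on the log2 scale) and the Z-score (outside the central 95% of a normal distribution). They were applied to each comparison and direction alone. The Z-score sets the reads of 2 libraries against each other, not conditions, and no p-value was computed. The 3 comparisons share libraries. Alternatives were 4 other scalings (reads on listed miRNAs, median of ratios, quantile normalization, miR-26a-5p), a pseudocount of 1 rpm, folds of 1.5 and 2, the fold alone, and a minimum of 100 reads. Scripts (Python 3.11.15, numpy 2.4.6, pandas 2.3.3, scipy 1.17.1) were tested on simulated data. The members, the marker and pathway lists and the rule for named miRNAs (the arms, listed miRNAs with the 5p seed, miR-26a-5p, the 5 nearest to the most abundant guide, and at most 3 of each list) were chosen with earlier results of these data known. The position of each hairpin and the mature sequences came from RefSeq and GENCODE vM21 on GRCm38.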

Additional observations from a re-analysis of the deposited data

How the results depend on the processing

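With 1 library per condition no alternative can show what a replicate would. No paired analysis was possible because each condition has a single library. With the libraries scaled to reads on listed miRNAs, the log2 ratio of the summed 5p arms was 0.27 in SB over Control, -0.0021 in Dox over SB (no difference within counting error) and 0.27 in Dox over Control, and that of the summed 3p arms -0.26, -0.18 (of the opposite sign to the value in rpm as deposited) and -0.44. With the median of ratios the 5p sums were 0.22, 0.087 and 0.31 and the 3p sums -0.31, -0.091 and -0.40. Quantile normalization gave 0.26 in Dox over SB and 0.33 in Dox over Control for the 5p sum, and 0.025 and -0.43 for the 3p sum. Relative to miR-26a-5p the 5p sums were -0.20, 0.41 and 0.21 and the 3p sums -0.74 in SB over Control and -0.51 in Dox over Control. The log2 ratio of miR-30e-3p in Dox over SB turned to -0.13 with the reads on listed miRNAs and -0.045 with the median of ratios. These scalings change 1 factor per library, or the whole distribution, and the median log2 ratio of all listed miRNAs moved with them in SB over Control from -0.19 to 0.04, -0.01, -0.05 and -0.44, and in Dox over SB from 0.38 to -0.09, -0.0012, 0.06 and 0.32, in the order just used. Why total reads and these measures differ was not tested. Shares of all listed miRNAs called were not computed for the other settings, so the counts below cannot be read as results about the members. Members called higher in SB over Control became 3 with the reads on listed miRNAs and with the median of ratios. They became 0 relative to miR-26a-5p and 0 with folds of 1.5 and 2. Members called lower there became 1 with the reads on listed miRNAs, with the median of ratios and with a fold of 1.5. They became 4 relative to miR-26a-5p, 3 with the fold alone and 0 with a fold of 2. In Dox over SB, members called higher became 3 with the reads on listed miRNAs, and 4 with the median of ratios and with quantile normalization. They became 5 relative to miR-26a-5p, 7 with the fold alone, 4 with a fold of 1.5 and 1 with a fold of 2. Those called lower became 3 with the reads on listed miRNAs and with the median of ratios, 2 with quantile normalization and 0 with a fold of 2. In Dox over Control, members called higher became 3 with the reads on listed miRNAs, the median of ratios, miR-26a-5p and a fold of 1.5, 4 with quantile normalization and 1 with a fold of 2, and those called lower 0 with folds of 1.5 and 2. Adding 1 rpm kept all 33 ratios of the members within their counting intervals. Depth limits miR-30d-3p most, with 5 or 6 reads per library.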
